A study of Homo sapiens with 12 samples.

Results

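Lysosomes digest cell material, and autophagy brings cell contents to them. A set of 35 genes for these processes was followed in NCI-H295R cells, a line from a human adrenocortical carcinoma that secretes steroids. The genes were chosen by name for their roles: 3 transcription factors of the MiT/TFE family, 4 proteins of the lysosomal membrane, 14 hydrolases or their cofactors, 5 subunits of the proton pump and 9 autophagy proteins. All 35 were found among the 60617 genes counted, and all 35 were among the 20360 genes with enough counts to be tested.

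Polyadenylated RNA was sequenced from 12 libraries, 3 cultures for each of 4 groups that the labels call biological replicates. The EZH2i group was given 62 µM EPZ-6438, an inhibitor of the histone methyltransferase EZH2, over 96 h. The CBPi group was given 26 µM PRI-724, which disrupts the pairing of β-catenin with the coactivator CBP, over 96 h. The FSK group spent 48 h in DMSO and then 48 h in 10 µM forskolin, an activator of adenylyl cyclase. The baseline group spent 96 h in DMSO, the vehicle. Per the labels, each inhibitor was used at its IC50 dose. Forskolin was present for a shorter time than the inhibitors, so times are not matched in comparisons with FSK. All cultures come from 1 established line, and p-values measure the spread between cultures of it.

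TFEB, TFE3 and MITF are related transcription factors. When the kinase complex mTORC1 is inactive, TFEB and TFE3 enter the nucleus and bind E-box sequences, with CACGTG at their core, in promoters of lysosomal and autophagy genes. Hydrolases made in the endoplasmic reticulum are carried to the lysosome, where the vacuolar proton pump (V-ATPase) keeps the lumen acidic. In adrenocortical cells, lysosomes also release cholesterol from lipoproteins, a substrate for steroid synthesis.

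Promoters of members were examined because the E-box is the site through which MiT/TFE factors act. RefSeq windows of 300 bases, 250 before and 50 after a gene's start (GRCh38.p14), were available for 26 members, some of which have several starts, 35 windows in all. CACGTG was found in 7 of these 35 windows, each of another member, and in 2548 (7.26%) of all 35116 windows. The longer TCACGTG, searched on both strands and containing that core, was in the same 7 windows and in 3.71% of all. The CLEAR motif, a longer palindrome around the same core, was in the windows of GAA and MCOLN1. These were 2 of the 35 member windows (5.7%), against 0.35% of all windows. The cAMP response element TGACGTCA, bound by CREB, was in windows of GABARAPL1 and MITF, 2 of the 35 (5.7%), and in 1.85% of all. TGATGNAA, a site for ATF4, was in 0 member windows and in 3.62% of all. TGACNNNGC, the core of the antioxidant response element, was in 10 of the 35 member windows (28.6%), of 10 members, and in 13.35% of all. A match describes letters only and shows no binding.

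The 7 windows with an E-box, the 2 with TGACGTCA and that of GLA, the member with the largest change against baseline, are printed 5′ to 3′ on the strand of the gene. Capitals mark CACGTG or TGACGTCA, and the GLA window holds neither. LAMP1 (chr13:113296989-113297288, + strand) had 6 matches to CACGTG, and GAA (chr17:80101331-80101630, + strand), MCOLN1 (chr19:7522374-7522673, + strand) and CTSA (chr20:45891085-45891384, + strand) had 2 each. NEU1 (chr6:31862772-31863071, - strand), CTSD (chr11:1763878-1764177, - strand) and ATP6V0D1 (chr16:67481108-67481407, - strand) had 1 each. The other windows lie at chr12:10212627-10212926, + strand for GABARAPL1, chr3:69936342-69936641, + strand for an internal start of MITF and chrX:101407876-101408175, - strand for GLA.
LAMP1: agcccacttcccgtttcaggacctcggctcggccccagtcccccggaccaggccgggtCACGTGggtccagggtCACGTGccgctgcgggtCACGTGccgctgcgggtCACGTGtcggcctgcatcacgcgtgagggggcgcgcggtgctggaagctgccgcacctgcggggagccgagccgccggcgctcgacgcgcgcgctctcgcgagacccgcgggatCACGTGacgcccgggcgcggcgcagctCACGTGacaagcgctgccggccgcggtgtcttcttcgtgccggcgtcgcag
GAA: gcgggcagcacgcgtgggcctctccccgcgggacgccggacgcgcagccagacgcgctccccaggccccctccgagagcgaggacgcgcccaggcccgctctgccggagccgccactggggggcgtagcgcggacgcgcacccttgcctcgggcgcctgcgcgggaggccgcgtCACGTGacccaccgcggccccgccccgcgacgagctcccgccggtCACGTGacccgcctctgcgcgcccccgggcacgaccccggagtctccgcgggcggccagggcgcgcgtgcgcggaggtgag
MCOLN1: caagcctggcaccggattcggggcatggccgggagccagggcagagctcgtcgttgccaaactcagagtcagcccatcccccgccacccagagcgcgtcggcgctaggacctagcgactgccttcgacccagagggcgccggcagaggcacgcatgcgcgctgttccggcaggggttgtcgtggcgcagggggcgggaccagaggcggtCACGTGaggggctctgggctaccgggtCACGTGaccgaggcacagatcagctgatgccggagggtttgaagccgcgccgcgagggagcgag
CTSA: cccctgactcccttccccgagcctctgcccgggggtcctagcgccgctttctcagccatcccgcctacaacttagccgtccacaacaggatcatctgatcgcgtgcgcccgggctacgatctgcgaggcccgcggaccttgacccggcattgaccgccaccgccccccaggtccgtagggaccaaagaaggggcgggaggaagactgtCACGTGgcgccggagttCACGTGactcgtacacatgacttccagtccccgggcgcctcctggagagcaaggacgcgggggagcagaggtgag
NEU1: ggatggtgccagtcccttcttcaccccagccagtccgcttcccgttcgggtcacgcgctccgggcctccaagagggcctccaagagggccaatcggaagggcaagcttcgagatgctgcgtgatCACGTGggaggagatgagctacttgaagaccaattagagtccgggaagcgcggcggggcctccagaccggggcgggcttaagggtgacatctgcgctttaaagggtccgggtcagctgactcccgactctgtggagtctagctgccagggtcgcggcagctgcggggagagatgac
CTSD: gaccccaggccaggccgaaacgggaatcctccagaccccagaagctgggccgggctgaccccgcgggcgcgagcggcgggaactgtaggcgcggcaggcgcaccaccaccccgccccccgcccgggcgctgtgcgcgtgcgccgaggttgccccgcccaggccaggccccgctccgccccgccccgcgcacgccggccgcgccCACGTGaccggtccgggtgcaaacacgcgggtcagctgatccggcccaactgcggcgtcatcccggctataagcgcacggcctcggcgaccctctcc
ATP6V0D1: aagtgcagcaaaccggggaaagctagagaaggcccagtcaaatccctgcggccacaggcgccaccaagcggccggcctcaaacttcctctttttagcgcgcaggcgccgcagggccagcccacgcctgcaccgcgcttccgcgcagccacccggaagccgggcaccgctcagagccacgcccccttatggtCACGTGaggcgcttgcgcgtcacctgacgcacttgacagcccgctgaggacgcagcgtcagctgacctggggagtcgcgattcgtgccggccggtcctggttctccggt
GABARAPL1: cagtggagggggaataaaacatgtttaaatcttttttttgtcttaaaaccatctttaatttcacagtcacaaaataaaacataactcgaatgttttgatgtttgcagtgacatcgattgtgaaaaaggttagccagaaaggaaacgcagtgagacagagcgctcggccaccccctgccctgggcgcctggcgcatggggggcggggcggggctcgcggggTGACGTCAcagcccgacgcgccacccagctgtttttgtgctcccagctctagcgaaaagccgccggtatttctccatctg
MITF: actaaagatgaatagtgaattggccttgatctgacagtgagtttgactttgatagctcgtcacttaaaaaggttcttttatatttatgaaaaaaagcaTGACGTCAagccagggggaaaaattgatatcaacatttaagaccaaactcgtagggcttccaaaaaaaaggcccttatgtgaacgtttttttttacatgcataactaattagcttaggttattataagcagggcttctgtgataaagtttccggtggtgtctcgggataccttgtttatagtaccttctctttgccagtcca
GLA: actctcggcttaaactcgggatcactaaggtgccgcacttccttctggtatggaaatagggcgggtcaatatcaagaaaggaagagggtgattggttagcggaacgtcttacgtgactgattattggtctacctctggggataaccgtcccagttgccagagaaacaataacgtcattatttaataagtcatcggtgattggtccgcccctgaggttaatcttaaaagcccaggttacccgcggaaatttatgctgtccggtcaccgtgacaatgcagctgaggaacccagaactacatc

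Library totals were 20.6 to 31.5 megacounts, counting each read as the authors assigned it. CBPi replicate 2 stood apart from the other CBPi libraries, since chi-square over degrees of freedom was 14.5 and 13.3 for its 2 pairs, against 2.71 to 7.33 for the other pairs of replicates. Markers of adrenocortical cells summed to 651 to 678 CPM (TMM-scaled counts per megacount) with EZH2i and 611 to 685 CPM with CBPi. They summed to 3920 to 4130 CPM with FSK, against 2060 to 2120 CPM at baseline. Of the 12 markers, 1 rose and 11 fell with EZH2i, and 0 rose and 11 fell with CBPi. With FSK 7 rose and 3 fell. Their median log2 fold changes were -2.151, -2.214 and 0.325, beside 0.033, 0.106 and 0.083 for the members. NR0B1 averaged 20.4 CPM with EZH2i and 3.04 CPM with FSK, against 10.3 CPM at baseline. Of 15 macrophage markers, AIF1, TYROBP, C1QA and C1QB had no count in any library, and the list summed to 2.45 to 4.14 CPM across the 12 libraries. Fibroblast markers summed to 42.3 to 49 CPM with EZH2i and 15 to 18.9 CPM with CBPi. They summed to 17.5 to 19.1 CPM with FSK, against 39.2 to 41.5 CPM at baseline. Of the 6 tested, 1 rose and 3 fell with EZH2i, and 0 rose and 5 fell with CBPi. With FSK 2 rose and 4 fell, and LUM averaged 4.61 CPM, against 0.0397 CPM at baseline. Endothelial markers summed to 3.11 to 4.5 CPM with EZH2i and 1.53 to 1.77 CPM with CBPi. They summed to 1.08 to 1.53 CPM with FSK, against 0.957 to 1.64 CPM at baseline. Of the 4 tested, 1 rose and 0 fell with each inhibitor, and 1 rose and 2 fell with FSK. Mitochondrial mRNAs took 3.19% ± 0.52 of counts with EZH2i, 3.66% ± 0.6 with CBPi and 2.61% ± 0.26 with FSK, against 2.42% ± 0.38 at baseline (SD, n = 3). The part of these differences in the members' changes was not tested. In bulk RNA of this 1 line, fewer cells in some state and less RNA per cell cannot be told apart.

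The 35 members together took 0.564% ± 0.011 of counts with EZH2i, 0.629% ± 0.0072 with CBPi and 0.528% ± 0.0059 with FSK, against 0.551% ± 0.013 at baseline (SD, n = 3). A single member, PSAP, made up a large part of this share. It averaged 2011 ± 22.4 CPM with CBPi, against 1615 ± 68 CPM at baseline, so the pooled rise is not a rise of every member. Per kilobase of gene length, PSAP, the precursor of the saposins that help degrade sphingolipids, was the most abundant member in every group. It reached 485 ± 15.1 CPM per kb with EZH2i, 631 ± 7.01 with CBPi and 483 ± 12.6 with FSK, against 507 ± 21.3 at baseline. Next at baseline came the proton pump accessory subunit ATP6AP1 (71.2 ± 1.59 CPM per kb), the proteases CTSZ (68.2 ± 1.21) and CTSD (66.0 ± 3.16) and the membrane protein LAMP1 (58.9 ± 1.13). CTSZ and CTSD did not differ beyond their spread. At the low end stood TFEB (1.28 ± 0.116 CPM per kb), while its relatives TFE3 (21.8 ± 1.10) and MITF (4.77 ± 0.168) lay higher.

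**Figure D1:**
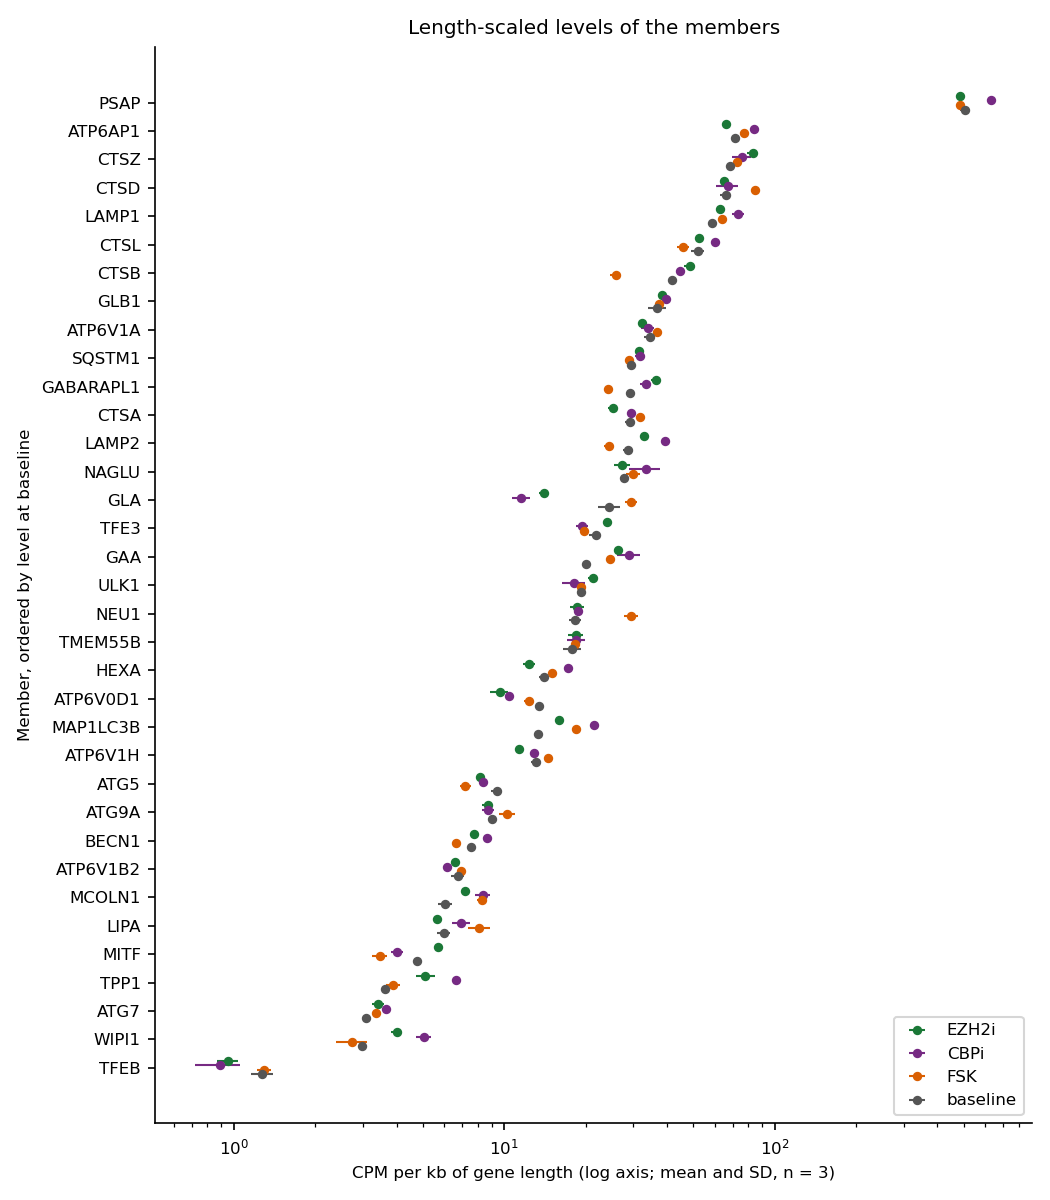
Level of each member in CPM per kilobase of gene length on a log axis, with 1 row per member in order of the baseline level. Points are means of 3 libraries and bars are SD; PSAP stands far above the rest and TFEB lies lowest in every group.

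The members did not move as a block with any treatment. Against baseline, 15 members rose and 8 fell with EZH2i, 18 rose and 7 fell with CBPi, and 12 rose and 9 fell with FSK (edgeR's quasi-likelihood test, Benjamini-Hochberg adjusted p below 0.05 over all 20360 genes). Changes of some size were common across the whole transcriptome. With EZH2i, 29.5% of all genes tested rose and 28.3% fell, 57.8% in all; with CBPi 29.8% rose and 29% fell, 58.9% in all; with FSK 25.5% rose and 25.1% fell, 50.6% in all. With so many genes called, a call alone does not set a member apart, and most changes were small. The median log2 fold change of the members was 0.033 with EZH2i, 0.106 with CBPi and 0.083 with FSK, beside 0.024, 0.015 and 0.015 for all genes tested. All 3 treated libraries lay above all 3 baseline libraries for 15 members with EZH2i, 17 with CBPi and 14 with FSK, and below them for 9, 7 and 9. Without overlap in either direction were 65.9% of all genes with EZH2i, 62.1% with CBPi and 57.5% with FSK. Called in every alternative setting were 10 of the 15 rises and 7 of the 8 falls with EZH2i. The same held for 15 of the 18 rises and 5 of the 7 falls with CBPi, and for 7 of the 12 rises and 7 of the 9 falls with FSK. The balance with FSK depended on the scaling of the libraries. With library size only, in place of TMM factors, 7 members rose and 11 fell with FSK. The median of all genes tested then moved from 0.015 to -0.054, a shift to be read beside the members' median of 0.083 with TMM. The share of all genes called with this scaling is not given here.

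A test against a change of 1.5-fold, made with the same model (glmTreat in edgeR), left few members. It called 0 members higher and 1 lower with EZH2i (GLA), where 6.62% of all genes were higher and 4.79% lower, 11.4% in all. It called 2 higher (TPP1, MAP1LC3B) and 1 lower (GLA) with CBPi, where 6.09% of all genes were higher and 6.14% lower, 12.2% in all. With FSK it called 0 higher and 1 lower (CTSB), where 5.34% of all genes were higher and 6.45% lower, 11.8% in all. At an unadjusted p below 0.05 the same test called 0 higher and 1 lower with EZH2i, 3 higher and 1 lower with CBPi, and 1 higher and 1 lower with FSK. The share of all genes at this unadjusted threshold is not given here, so these counts cannot be set against it. Without CBPi replicate 2, 17 members rose and 7 fell with CBPi by the plain test, and 2 rose and 1 fell by over 1.5-fold.

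**Figure D2:**
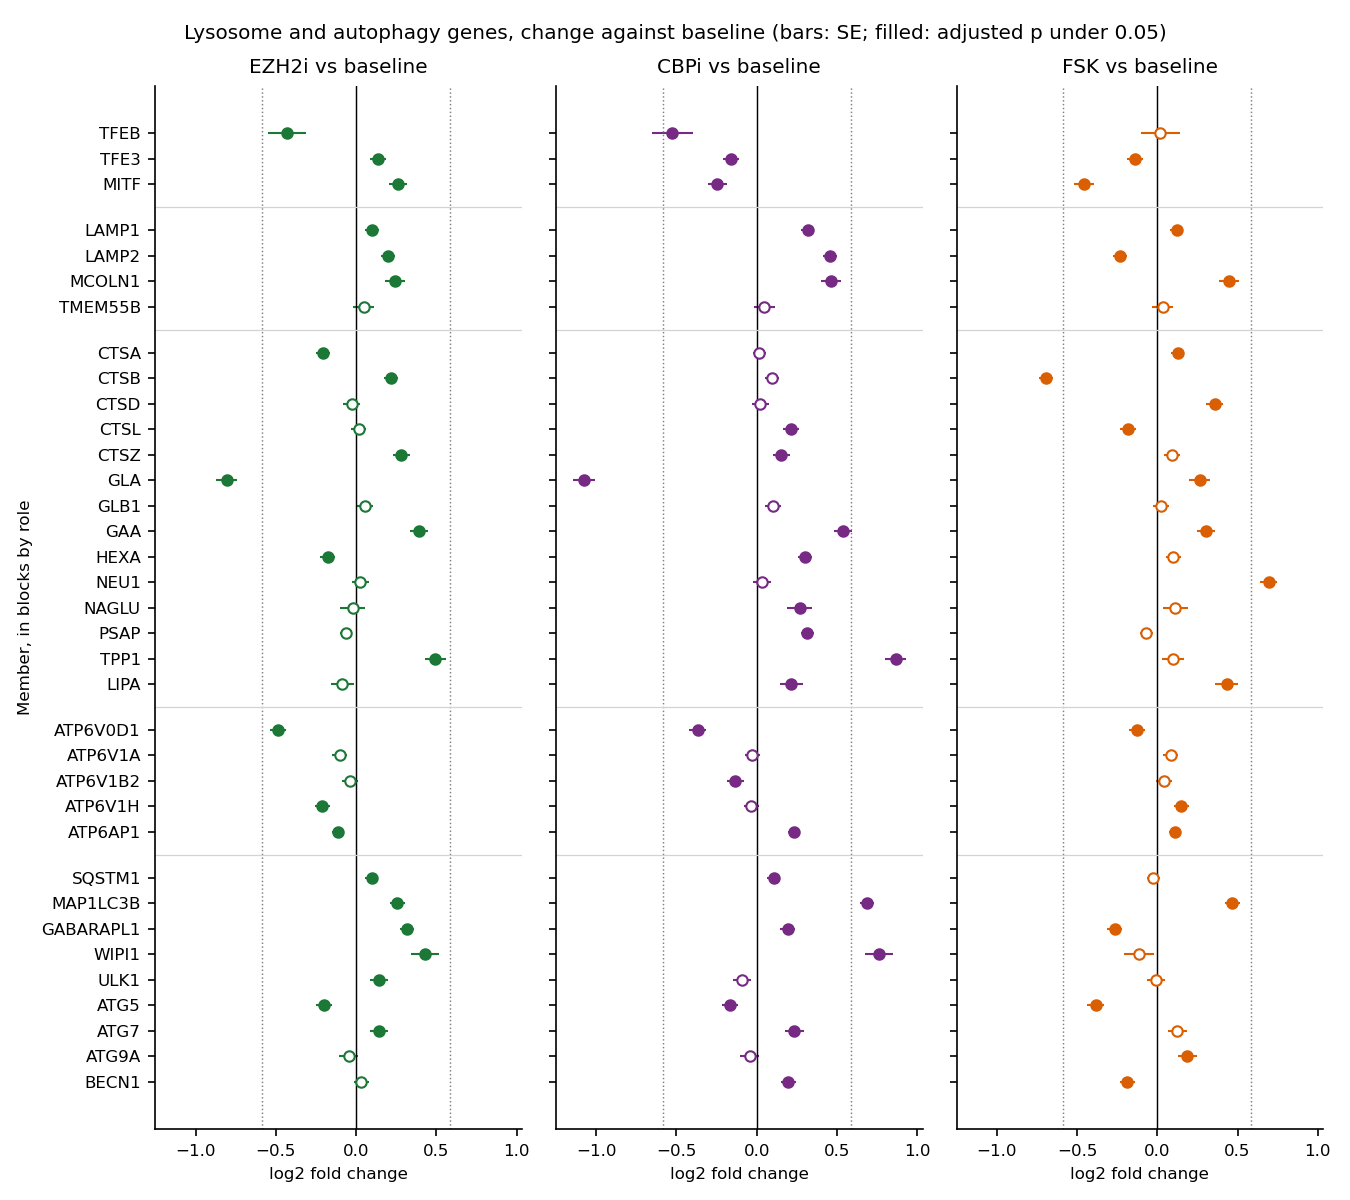
Log2 fold change of each of the 35 members against baseline with EZH2i, CBPi and FSK, in blocks by role (transcription factors, membrane, hydrolases, V-ATPase, autophagy). Points are estimates, bars are SE, filled points passed the plain test, and dotted lines mark a 1.5-fold change; GLA lies far to the left with EZH2i and CBPi and CTSB with FSK.

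Of the transcription factors, TFEB fell with both inhibitors, and MITF rose with EZH2i and fell with CBPi and FSK. TFEB was at 5.28, 4.93 and 5.89 CPM with EZH2i, 5.43, 3.94 and 5.67 CPM with CBPi and 7.77, 6.91 and 7.31 CPM with FSK, against 6.70, 7.95 and 6.96 CPM at baseline. All EZH2i and CBPi libraries lay below every baseline library, while the FSK libraries overlapped with them. TFEB was 1.35-fold lower with EZH2i (log2 change -0.43 ± 0.12 SE, adjusted p = 0.00481) and 1.44-fold lower with CBPi (log2 change -0.53 ± 0.13 SE, adjusted p = 0.0014); its value with FSK was 0.02 ± 0.12 (adjusted p = 0.915). MITF, best known from pigment cells, was at 40.8, 42.5 and 39.9 CPM with EZH2i, 28.0, 30.5 and 28.1 CPM with CBPi and 26.5, 23.3 and 25.1 CPM with FSK, against 34.0, 33.2 and 35.6 CPM at baseline. It was higher than baseline in each EZH2i library and lower in each CBPi and FSK library. The log2 fold changes were 0.26 ± 0.06 with EZH2i (adjusted p = 0.000604), -0.25 ± 0.06 with CBPi (adjusted p = 0.00154) and -0.46 ± 0.06 with FSK (adjusted p = 2.72e-06).

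TFE3, the most abundant of the 3 per kilobase, was at 99.5, 100.1 and 102 CPM with EZH2i, 84.6, 77.0 and 84.2 CPM with CBPi and 82.6, 81.7 and 85.6 CPM with FSK, against 96.9, 89.2 and 88.7 CPM at baseline. Its EZH2i libraries lay above, and its CBPi and FSK libraries below, all baseline libraries. These changes were small, 0.14 ± 0.05 with EZH2i, -0.16 ± 0.05 with CBPi and -0.14 ± 0.05 with FSK on the log2 scale (adjusted p = 0.0196, 0.00795 and 0.0239). The call with EZH2i was lost without EZH2i replicate 3 (adjusted p = 0.0701), baseline replicate 2 (0.0966) or baseline replicate 3 (0.0923). The call with CBPi was lost without baseline replicate 1 (0.0505), and that with FSK without FSK replicate 1 (0.0628), FSK replicate 2 (0.077) or baseline replicate 1 (0.127). Activity of these factors is set largely by where in the cell they are, which RNA does not show.

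Among membrane proteins, the 3 with a call rose with both inhibitors. MCOLN1, the calcium channel of the lysosomal membrane, was at 28.3, 28.3 and 28.4 CPM with EZH2i, 31.8, 31.7 and 35.4 CPM with CBPi and 31.2, 33.8 and 33.0 CPM with FSK, against 22.2, 24.9 and 24.6 CPM at baseline. Every treated library lay above every baseline library. MCOLN1 was 1.18-fold higher with EZH2i (log2 change 0.24 ± 0.06 SE, adjusted p = 0.00253), 1.38-fold higher with CBPi (log2 change 0.46 ± 0.06 SE, adjusted p = 2.70e-06) and 1.36-fold higher with FSK (log2 change 0.45 ± 0.06 SE, adjusted p = 5.45e-06). MCOLN1 shares 4.4% of its exon bases with other genes, mostly with a protein-coding gene on its own strand. That gene rose with EZH2i (0.38) and CBPi (0.52) and did not pass with FSK (0.19). The part of its reads in the MCOLN1 counts was not tested. LAMP1 and LAMP2, the glycoproteins that line the lysosome, parted with FSK. LAMP2 averaged 182 ± 3.45 CPM with EZH2i, 218 ± 2.27 CPM with CBPi and 135 ± 5.86 CPM with FSK, against 159 ± 6.53 CPM at baseline (SD, n = 3), a rise with each inhibitor (0.20 and 0.46) and a fall with FSK (-0.23, adjusted p = 0.000142). LAMP1 averaged 362 ± 9.95, 422 ± 21.0 and 368 ± 8.69 CPM with EZH2i, CBPi and FSK, against 338 ± 6.47 CPM at baseline. Its rise with CBPi (0.32, adjusted p = 1.52e-06) kept its call in the alternatives, whereas the rises with EZH2i (0.10) and FSK (0.12) were near the threshold. The EZH2i call was lost without EZH2i replicate 1 or 2 or any baseline library (adjusted p 0.0644 to 0.183), and the FSK call without FSK replicate 1 or 3 or baseline replicate 1 or 3 (0.0519 to 0.0756) and with library size only (0.288). TMEM55B, a phosphoinositide phosphatase of this membrane, passed in none of the 3 comparisons (0.05, 0.05 and 0.03; adjusted p 0.552 to 0.705).

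The hydrolases held the largest changes, and they pointed both ways. GLA, α-galactosidase A, which is deficient in Fabry disease, was at 30.5, 32.1 and 32.9 CPM with EZH2i, 24.4, 28.6 and 26.1 CPM with CBPi and 69.5, 63.1 and 68.0 CPM with FSK, against 50.1, 56.7 and 60.2 CPM at baseline. All libraries of EZH2i and CBPi lay below, and all FSK libraries above, every baseline library. GLA was 1.75-fold lower with EZH2i (log2 change -0.81 ± 0.07 SE, adjusted p = 3.48e-09), 2.11-fold lower with CBPi (log2 change -1.08 ± 0.07 SE, adjusted p = 7.13e-11) and 1.20-fold higher with FSK (log2 change 0.26 ± 0.07 SE, adjusted p = 0.00208). It passed the 1.5-fold test with both inhibitors (adjusted p = 0.00463 with EZH2i and 2.11e-06 with CBPi) and kept these calls without any 1 library. No other annotated gene shares exon bases with GLA.

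TPP1, a tripeptidyl peptidase that is lost in a childhood neuronal ceroid lipofuscinosis, was at 33.8, 35.7 and 30.4 CPM with EZH2i, 42.2, 43.1 and 43.8 CPM with CBPi and 24.1, 27.1 and 24.6 CPM with FSK, against 23.1, 23.8 and 24.1 CPM at baseline. All EZH2i and CBPi libraries were above the baseline libraries, and FSK overlapped with baseline. TPP1 was 1.41-fold higher with EZH2i (log2 change 0.49 ± 0.06 SE, adjusted p = 1.62e-06) and 1.82-fold higher with CBPi (log2 change 0.87 ± 0.06 SE, adjusted p = 4.88e-10), and in the CBPi comparison it passed the 1.5-fold test (adjusted p = 0.000453). A noncoding transcript on the same strand covers 11.6% of the exon bases of TPP1 and passed in none of these comparisons. GAA, which breaks down glycogen and is deficient in Pompe disease, was at 133, 141 and 139 CPM with EZH2i, 163, 135 and 158 CPM with CBPi and 125, 133 and 131 CPM with FSK, against 106, 107 and 102 CPM at baseline. Every treated library exceeded every baseline library. GAA was 1.31-fold higher with EZH2i (log2 change 0.39 ± 0.06 SE, adjusted p = 5.72e-06), 1.45-fold with CBPi (log2 change 0.54 ± 0.06 SE, adjusted p = 8.72e-08) and 1.23-fold with FSK (log2 change 0.30 ± 0.06 SE, adjusted p = 0.000146).

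With FSK, other hydrolases led. NEU1, a sialidase that trims glycoproteins, was at 84.5, 95.8 and 89.2 CPM with EZH2i, 87.3, 90.6 and 93.0 CPM with CBPi and 152, 136 and 139 CPM with FSK, against 85.0, 86.0 and 93.6 CPM at baseline. Only the FSK libraries lay apart from baseline, and all were above it. NEU1 was 1.62-fold higher with FSK (log2 change 0.69 ± 0.06 SE, adjusted p = 1.62e-09) and had values of 0.03 ± 0.06 with EZH2i and 0.04 ± 0.06 with CBPi, which did not pass (adjusted p = 0.704 and 0.608). Its adjusted p for a change over 1.5-fold was 0.0695, and 0.0422 without FSK replicate 2 and 0.0262 without baseline replicate 3.

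CTSB, a cysteine protease, was at 339, 372 and 356 CPM with EZH2i, 322, 318 and 341 CPM with CBPi and 196, 179 and 193 CPM with FSK, against 302, 309 and 308 CPM at baseline. Its FSK libraries were well below, and its EZH2i and CBPi libraries above, all baseline libraries. CTSB was 1.62-fold lower with FSK (log2 change -0.69 ± 0.05 SE, adjusted p = 6.40e-11) and 1.16-fold higher with EZH2i (log2 change 0.22 ± 0.04 SE, adjusted p = 0.000322), while its value with CBPi was 0.10 ± 0.04 (adjusted p = 0.0724, and 0.0475 with a filter of at least 1 CPM in 3 libraries). The fall with FSK passed the 1.5-fold test (adjusted p = 0.0271), but not without FSK replicate 2 (0.169), baseline replicate 2 (0.0772) or baseline replicate 3 (0.0586). LIPA, the acid lipase that frees cholesterol from its esters, was at 28.6, 27.1 and 27.1 CPM with EZH2i, 31.8, 36.8 and 33.4 CPM with CBPi and 42.8, 35.4 and 40.6 CPM with FSK, against 27.4, 30.1 and 30.4 CPM at baseline. The FSK libraries lay above all others but CBPi replicate 2, and the EZH2i libraries overlapped with baseline. LIPA was 1.35-fold higher with FSK (log2 change 0.43 ± 0.07 SE, adjusted p = 3.58e-05) and 1.16-fold higher with CBPi (log2 change 0.21 ± 0.07 SE, adjusted p = 0.0149), and this last call was lost without CBPi replicate 2 (adjusted p = 0.0976) or baseline replicate 1 (0.0819).

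The other hydrolase genes changed less. PSAP averaged 1547 ± 48.2 CPM with EZH2i, 2011 ± 22.4 CPM with CBPi and 1541 ± 40.1 CPM with FSK, against 1615 ± 68.0 CPM at baseline (SD, n = 3). It rose with CBPi (0.32 ± 0.04, adjusted p = 7.33e-07), while its values with EZH2i (-0.06) and FSK (-0.07) did not pass. Without baseline replicate 1 it passed as lower with EZH2i (adjusted p = 0.0425) and with FSK (0.0396), and with library size only it passed as lower with FSK (0.00398). HEXA, a subunit of β-hexosaminidase, fell with EZH2i (-0.18 ± 0.05, adjusted p = 0.00237) and rose with CBPi (0.30 ± 0.05, adjusted p = 1.01e-05). It shares 16.3% of its exon bases with other genes, the largest part with an antisense RNA that also rose with CBPi (1.20, adjusted p = 0.000182) but averaged only 1.36 ± 0.155 CPM there. CTSD, the main aspartic protease of lysosomes, rose with FSK (0.36 ± 0.06, adjusted p = 1.66e-05), and the protein-coding gene that overlaps it on the same strand rose by 0.36; the 2 share 41.7% of the exon bases of CTSD. CTSA, which protects NEU1 and GLB1 in a complex, fell with EZH2i (-0.21 ± 0.04, adjusted p = 0.000271). Its rise with FSK (0.13, adjusted p = 0.016) was lost without baseline replicate 1 (0.0969) and with library size only (0.269). CTSL, a cysteine protease, rose with CBPi (0.21, adjusted p = 0.00072) and fell with FSK (-0.18, adjusted p = 0.00373). CTSZ, a carboxypeptidase, rose with EZH2i (0.28, adjusted p = 9.49e-05); with CBPi (0.15, adjusted p = 0.0154) the call was lost without CBPi replicate 1 (0.0689), CBPi replicate 3 (0.104) or baseline replicate 2 (0.0648). NAGLU, which acts on heparan sulfate, rose with CBPi (0.27, adjusted p = 0.00742), though its libraries overlapped. CBPi replicate 2, at 83.1 CPM, lay within the baseline range of 79.8 to 84.1 CPM, below CBPi replicates 1 and 3 (103 and 107 CPM). GLB1, β-galactosidase, passed in none of the 3 comparisons (0.06, 0.10 and 0.02), but passed with CBPi without baseline replicate 3 (adjusted p = 0.024).

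**Figure D3:**
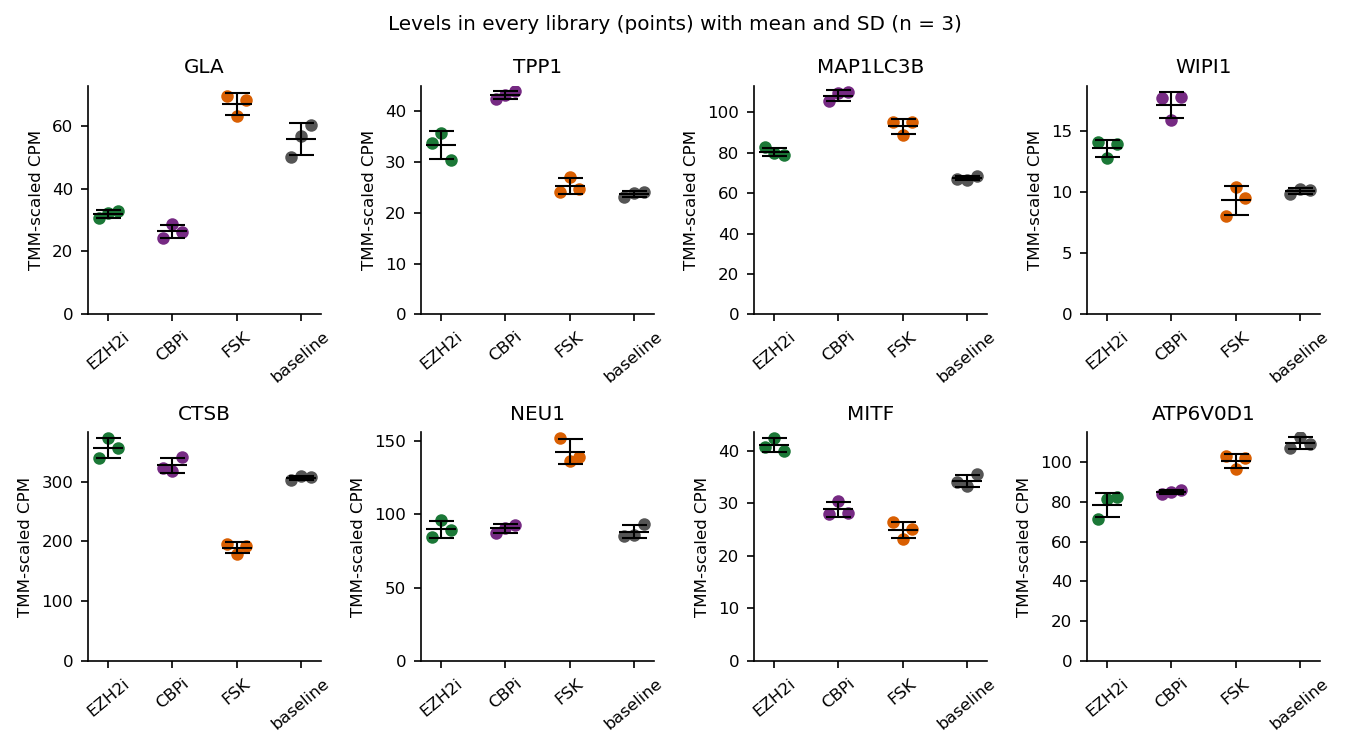
TMM-scaled CPM of 8 members in every library (points), with the mean and SD of the 3 libraries of each group. GLA is low with EZH2i and CBPi, TPP1 and WIPI1 are high with both, and CTSB is low and NEU1 high with FSK.

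Of the 5 members in the proton pump, 0 rose and 3 fell with EZH2i. With CBPi 1 rose and 2 fell, and with FSK 2 rose and 1 fell. Of all genes tested, 29.5% rose and 28.3% fell with EZH2i, 29.8% and 29% with CBPi, and 25.5% and 25.1% with FSK. The 3 falls with EZH2i were 2 without EZH2i replicate 1 or baseline replicate 2, and 4 without baseline replicate 1 or 3. The 2 falls with CBPi were 1 without CBPi replicate 3 or baseline replicate 1. The 2 rises with FSK were 0 without baseline replicate 1 and with library size only. ATP6V0D1, a subunit of the membrane domain V0, was at 71.5, 81.4 and 82.3 CPM with EZH2i, 84.2, 84.9 and 86.1 CPM with CBPi and 103, 96.3 and 102 CPM with FSK, against 107, 113 and 109 CPM at baseline. Each treated library lay below every baseline library, those with EZH2i and CBPi by more than those with FSK. ATP6V0D1 was 1.40-fold lower with EZH2i (log2 change -0.49 ± 0.05 SE, adjusted p = 9.33e-08) and 1.29-fold lower with CBPi (log2 change -0.37 ± 0.05 SE, adjusted p = 3.98e-06). With FSK the log2 change was -0.13 ± 0.05 (adjusted p = 0.045), a call lost without FSK replicate 2 or 3 or baseline replicate 2 or 3 (0.061 to 0.178). ATP6V1H, a regulatory subunit of the domain V1, was at 57.5, 59.7 and 56.7 CPM with EZH2i, 65.0, 67.7 and 64.0 CPM with CBPi and 76.3, 73.1 and 73.7 CPM with FSK, against 63.8, 68.7 and 68.6 CPM at baseline. The EZH2i libraries were below and the FSK libraries above all baseline libraries, and CBPi overlapped with baseline. ATP6V1H fell with EZH2i (log2 change -0.21 ± 0.05 SE, adjusted p = 0.000705); its rise with FSK (0.15, adjusted p = 0.0118) was lost without FSK replicate 1 (0.0559), without baseline replicate 1 (0.0771) and with library size only (0.166).

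ATP6AP1, the accessory subunit that helps the pump assemble, averaged 321 ± 5.50 CPM with EZH2i, 407 ± 8.03 CPM with CBPi and 375 ± 12.1 CPM with FSK, against 347 ± 7.72 CPM at baseline (SD, n = 3). It rose with CBPi (0.23, adjusted p = 2.27e-05). Its fall with EZH2i (-0.11) was lost without EZH2i replicate 1 (adjusted p = 0.0675) or baseline replicate 2 (0.0775), and its rise with FSK (0.11) without FSK replicate 3 or baseline replicate 1 or 3 (0.064 to 0.103) and with library size only (0.34). ATP6V1A, the catalytic subunit, had values of -0.10, -0.03 and 0.08 with EZH2i, CBPi and FSK, none of which passed, though the first did without baseline replicate 1 (0.0472) or baseline replicate 3 (0.0495). ATP6V1B2, which pairs with it, passed as lower with CBPi only (-0.13, adjusted p = 0.033), and not without CBPi replicate 3 (0.146) or baseline replicate 1 (0.158).

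Of 19 other V-ATPase genes, 16 were tested. Of these, 1 rose and 10 fell with EZH2i (median -0.217), and 2 rose and 7 fell with CBPi (-0.104). With FSK 8 rose and 3 fell (0.185). Of all genes tested, 29.5% rose and 28.3% fell with EZH2i, and 29.8% rose and 29% fell with CBPi. With FSK 25.5% of all genes rose and 25.1% fell. Of all 24 V-ATPase genes, the 5 members included, 21 were tested. With EZH2i 1 rose and 13 fell, with a median log2 fold change of -0.174; with CBPi 3 rose and 9 fell, with a median of -0.078; with FSK 10 rose and 4 fell, with a median of 0.114, though with library size only 5 rose, 5 fell and the median was 0.044. The single rise with EZH2i was ATP6V0A1, a subunit of the proton path, at 89.9 ± 2.87 CPM with EZH2i and 102 ± 4.21 CPM with FSK, against 58.6 ± 2.46 CPM at baseline. It went against the rest with EZH2i (log2 change 0.62 ± 0.05 SE, adjusted p = 2.64e-09) and had the largest rise with FSK (log2 change 0.80 ± 0.05 SE, adjusted p = 4.67e-11). Among the falls with EZH2i were ATP6V0B, of the proteolipid ring (-0.51, adjusted p = 2.79e-05), and ATP6AP2, the prorenin receptor (-0.48, adjusted p = 2.82e-08). With CBPi, ATP6V0B (-0.49), ATP6V0C of the same ring (-0.37) and ATP6V0E2 (-0.31) fell, with adjusted p-values of 4.31e-05, 4.53e-05 and 0.00014. With FSK, TCIRG1, an alternative to ATP6V0A1, rose (0.63, adjusted p = 0.000166), and ATP6V1G2 fell (-1.09, adjusted p = 0.0109) at under 1 CPM in the means of both groups. Between treatments, 1 of the 21 was higher and 16 were lower with EZH2i than with FSK, and 3 were higher and 16 lower with CBPi than with FSK; library size only gave 2 and 12, and 3 and 12.

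**Figure D4:**
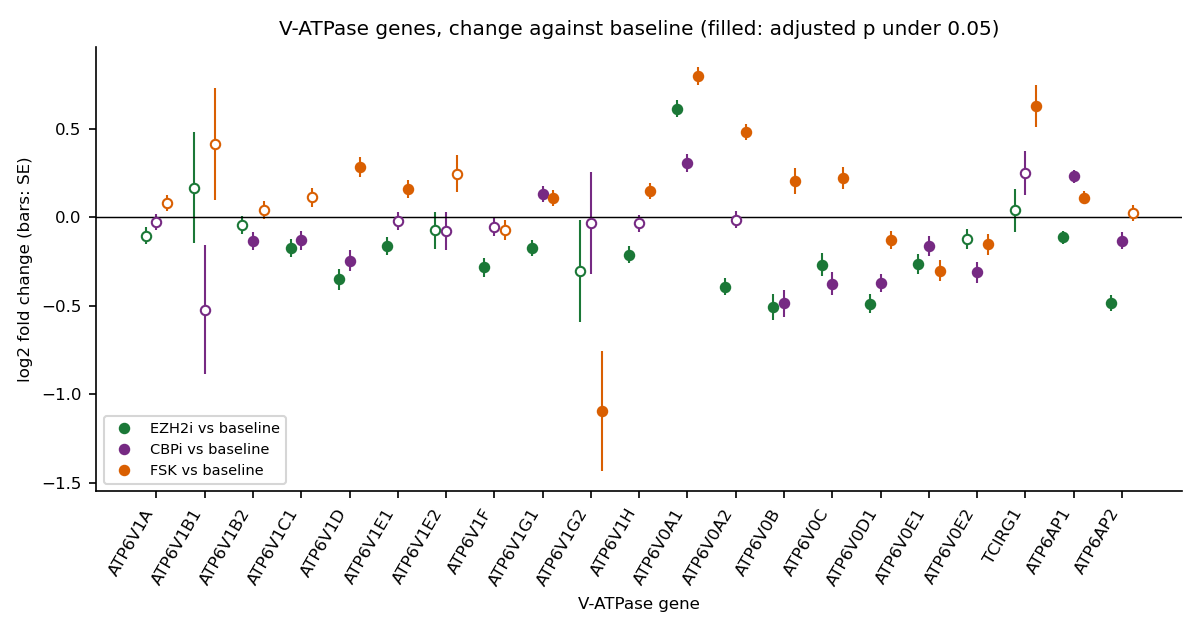
Log2 fold change against baseline of the 21 V-ATPase genes tested, with EZH2i, CBPi and FSK side by side for each gene; bars are SE and filled points passed the plain test. Of the filled EZH2i points, 13 lie below 0 and 1, ATP6V0A1, lies above it.

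Of the 9 autophagy members, 6 rose and 1 fell with EZH2i, 6 rose and 1 fell with CBPi, and 2 rose and 3 fell with FSK. By the same test 29.5%, 29.8% and 25.5% of all genes rose, and 28.3%, 29% and 25.1% fell. The 6 rises with EZH2i were 3 without EZH2i replicate 2 or 3 or baseline replicate 2 or 3 and with DESeq2, as ATG7, ULK1 and SQSTM1 lost their calls. With FSK 1 rose without FSK replicate 3, and 1 rose and 4 fell with library size only. MAP1LC3B encodes LC3B, the ubiquitin-like protein that is attached to autophagosome membranes, and was at 82.8, 80.0 and 78.8 CPM with EZH2i, 106, 109.7 and 109.9 CPM with CBPi and 95.5, 88.9 and 95.1 CPM with FSK, against 66.9, 66.7 and 68.5 CPM at baseline. All treated libraries were above all baseline libraries. MAP1LC3B was 1.20-fold higher with EZH2i (log2 change 0.26 ± 0.04 SE, adjusted p = 5.01e-05), 1.61-fold with CBPi (log2 change 0.69 ± 0.04 SE, adjusted p = 6.12e-11) and 1.38-fold with FSK (log2 change 0.47 ± 0.04 SE, adjusted p = 2.35e-08). It passed the 1.5-fold test with CBPi (adjusted p = 0.0342), but not without CBPi replicate 2 (0.0941), CBPi replicate 3 (0.0951), baseline replicate 1 (0.0806) or baseline replicate 2 (0.109).

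GABARAPL1, of the same protein family, also rose with both inhibitors but fell with FSK. It was at 152, 149 and 141 CPM with EZH2i, 136, 141 and 129 CPM with CBPi and 99.8, 96.3 and 99.3 CPM with FSK, against 119, 115 and 122 CPM at baseline. The EZH2i and CBPi libraries lay above, and the FSK libraries below, all baseline libraries. The log2 fold changes were 0.32 ± 0.04 with EZH2i (adjusted p = 4.83e-06), 0.19 ± 0.05 with CBPi (adjusted p = 0.00113) and -0.26 ± 0.05 with FSK (adjusted p = 6.63e-05). WIPI1, which reads phosphatidylinositol 3-phosphate on forming autophagosomes, was at 14.1, 12.8 and 13.9 CPM with EZH2i, 17.7, 15.96 and 17.8 CPM with CBPi and 8.05, 10.5 and 9.50 CPM with FSK, against 9.85, 10.3 and 10.2 CPM at baseline. EZH2i and CBPi libraries were above baseline without overlap, and FSK overlapped with it. WIPI1 was 1.35-fold higher with EZH2i (log2 change 0.43 ± 0.09 SE, adjusted p = 0.000305) and 1.70-fold higher with CBPi (log2 change 0.76 ± 0.09 SE, adjusted p = 3.04e-07); for a change over 1.5-fold with CBPi its adjusted p was 0.0584, and 0.0296 without CBPi replicate 2. WIPI1 shares 24.3% of its exon bases with ARSG on the other strand, and whether reads were counted by strand is not given in the sources used here, so its counts are uncertain. ARSG itself, at 3.84 ± 0.764 CPM with CBPi and 2.05 ± 0.353 CPM at baseline, rose with CBPi (0.89, adjusted p = 0.000246) and had a value of 0.27 with EZH2i (adjusted p = 0.217).

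ATG5, a core part of the conjugation machinery, was at 46.0, 46.8 and 45.5 CPM with EZH2i, 47.0, 46.9 and 47.8 CPM with CBPi and 42.7, 40.2 and 39.0 CPM with FSK, against 50.2, 53.6 and 55.3 CPM at baseline. Every treated library lay below every baseline library. ATG5 fell with EZH2i (log2 change -0.20 ± 0.05 SE, adjusted p = 0.0018), CBPi (log2 change -0.17 ± 0.05 SE, adjusted p = 0.00783) and FSK (log2 change -0.38 ± 0.05 SE, adjusted p = 2.83e-06). BECN1, of the lipid kinase complex that starts autophagosomes, rose with CBPi (0.20 ± 0.05, adjusted p = 0.00129) and fell with FSK (-0.19 ± 0.05, adjusted p = 0.00271); it shares 17.1% of its exon bases with other genes. ATG7, the activating enzyme of conjugation, rose with CBPi (0.23, adjusted p = 0.00158), and its rise with EZH2i (0.14) was lost without EZH2i replicate 2 or 3 or any baseline library (0.0515 to 0.18). It shares 18.1% of its exon bases with VGLL4 on the other strand, a more abundant gene that rose with EZH2i (0.73, adjusted p = 4.33e-11) and with CBPi (0.78, adjusted p = 1.63e-11), and the part of VGLL4 reads in its counts was not tested. ULK1, the kinase that starts autophagy, rose with EZH2i (0.14, adjusted p = 0.0342), but not without EZH2i replicate 2 or 3 or baseline replicate 2 or 3 (0.0592 to 0.153); with CBPi (-0.09) it passed as lower only without CBPi replicate 1 (0.0443). ATG9A, which supplies membrane lipid, rose with FSK (0.19, adjusted p = 0.0114), but not without FSK replicate 3 (0.0772) or with library size only (0.0934), and shares 38.8% of its exon bases with a gene on its own strand. SQSTM1, the receptor p62 that is itself degraded by autophagy, rose by 0.10 with EZH2i and 0.11 with CBPi. Those 2 calls were lost without any 1 of the 6 EZH2i and baseline libraries (0.0558 to 0.171), and without CBPi replicate 1 or 3 or baseline replicate 1 or 2 (0.0554 to 0.131). SQSTM1 passed as lower with FSK with library size only (0.0412).

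Direct tests between treatments showed where the members differed. Between EZH2i and CBPi, 7 members were higher and 16 lower with EZH2i, where 21.7% of all genes were higher and 22.2% lower, 43.9% in all; 5 and 17 members had no overlap between libraries, against 52% of all genes in either direction. The median over the members was -0.092, and -0.01 over all genes. MITF was 1.42-fold higher with EZH2i than with CBPi (log2 change 0.51 ± 0.06 SE, adjusted p = 6.80e-07), and TFE3 and ULK1 were also higher (0.30 and 0.23). HEXA (-0.48 ± 0.05), MAP1LC3B (-0.43 ± 0.04), PSAP (-0.38 ± 0.04), TPP1 (-0.37 ± 0.06) and ATP6AP1 (-0.34 ± 0.04) were lower with EZH2i, with adjusted p-values of at most 4.94e-05. GLA, low with both, was 1.21-fold higher with EZH2i than with CBPi (log2 change 0.27 ± 0.07 SE, adjusted p = 0.00449). The 1.5-fold test of edgeR called 0 members in this comparison, where 3.55% of all genes were higher and 1.33% lower, 4.88% in all. At an unadjusted p below 0.05 it also called 0 members. The share of all genes at that unadjusted threshold is not given here. Without 1 library the count of members higher with EZH2i was 4 to 6, as the calls of CTSB, CTSZ and GABARAPL1 were near the threshold, and it was 4 without EZH2i replicate 2.

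Between EZH2i and FSK, 13 members were higher and 14 lower with EZH2i, where 30.3% of all genes were higher and 31.3% lower, 61.6% in all; 13 and 15 had no overlap, against 67.5% of all genes. With library size only, 16 were higher and 12 lower, and the median over the members was 0.097 in place of 0.006. CTSB (1.88-fold higher, log2 change 0.91 ± 0.05 SE, adjusted p = 4.43e-13) and MITF (1.65-fold higher, log2 change 0.72 ± 0.06 SE, adjusted p = 1.51e-09) passed the 1.5-fold test as higher with EZH2i, and GLA (2.10-fold lower, log2 change -1.07 ± 0.07 SE, adjusted p = 1.97e-11) as lower. That test called 10.7% of all genes higher and 7.81% lower, 18.5% in all. The call of MITF was lost without EZH2i replicate 2 (adjusted p = 0.0949) or FSK replicate 2 (0.148), and NEU1 (-0.67 ± 0.05) passed as lower without EZH2i replicate 2 (0.0318). GABARAPL1 (0.58 ± 0.05) passed as higher with library size only (0.0482).

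Between CBPi and FSK, 16 members were higher and 11 lower with CBPi, where 29.3% of all genes were higher and 29.5% lower, 58.8% in all; 18 and 10 had no overlap, against 61.5% of all genes. With library size only, 20 were higher and 7 lower. WIPI1 (1.84-fold, log2 change 0.88 ± 0.09 SE, adjusted p = 4.02e-08), CTSB (1.73-fold, log2 change 0.79 ± 0.05 SE, adjusted p = 5.73e-12), TPP1 (1.70-fold, log2 change 0.77 ± 0.06 SE, adjusted p = 1.98e-09) and LAMP2 (1.61-fold, log2 change 0.69 ± 0.04 SE, adjusted p = 2.23e-11) were higher by over 1.5-fold, and GLA was 2.53-fold lower (log2 change -1.34 ± 0.07 SE, adjusted p = 1.20e-12). In that test 8.33% of all genes were higher and 6.92% lower, 15.3% in all. LAMP2 no longer passed it without FSK replicate 2 (adjusted p = 0.126).

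Members whose promoter window holds an E-box were set beside the other members with a window, a grouping made after the values were known and given as a description. With FSK, 6 of the 7 members with an E-box rose (NEU1, MCOLN1, CTSD, GAA, CTSA and LAMP1, whose windows are printed above) and ATP6V0D1 fell, with a median of 0.303. Of the 19 without one, 5 rose and 6 fell, with a median of 0.018. With library size only, 4 of the 7 rose and 1 fell, since CTSA and LAMP1 no longer passed. With EZH2i 3 of the 7 rose and 2 fell (median 0.027), beside 10 and 4 of the 19 (0.097), and with CBPi 3 rose and 1 fell (0.036), beside 11 and 5 (0.154). Among all 1550 genes tested with CACGTG in a window, 30.8% rose and 26.8% fell with FSK, against 28% and 28.9% of all 12659 genes tested with a window. Of these 1550 genes, 35.4% rose and 29.7% fell with EZH2i, and 36.6% rose and 29% fell with CBPi, against 33% and 30.6%, and 32.9% and 32%, of all genes with a window. Of 878 genes tested with the longer TCACGTG, 37% rose and 28.1% fell with EZH2i, 39.9% rose and 27.1% fell with CBPi, and 29.5% rose and 28% fell with FSK. GABARAPL1 and MITF, with TGACGTCA in a window, both fell with FSK (-0.26 and -0.46), while of 469 genes tested with that sequence 30.7% rose and 28.4% fell.

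**Figure D5:**
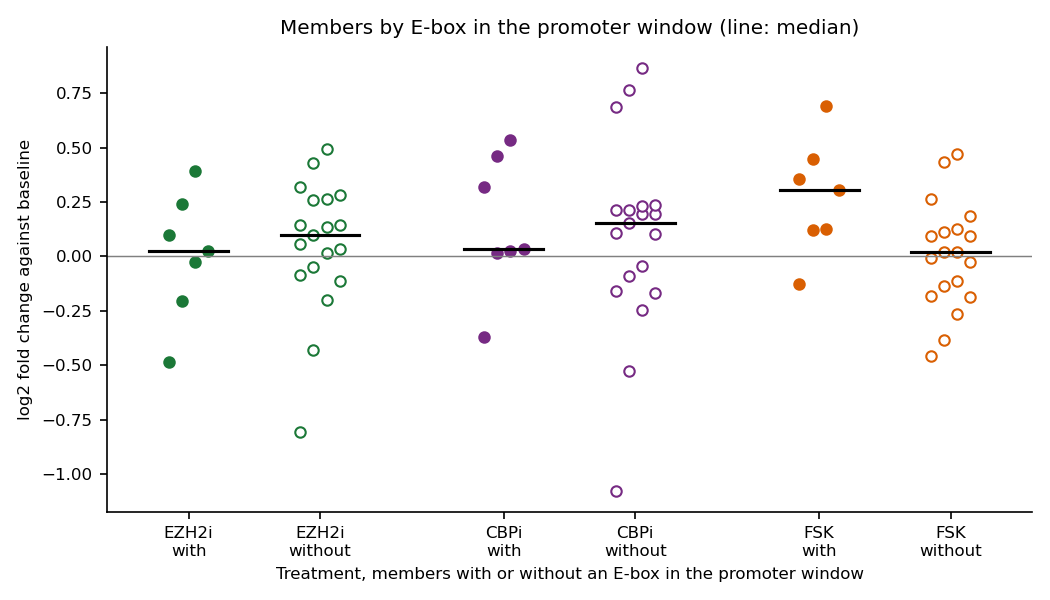
Log2 fold change against baseline of the 7 members with CACGTG in the promoter window (filled) and the 19 without (open), for EZH2i, CBPi and FSK; lines are medians. With FSK 6 of the 7 filled points lie above 0, and the open points lie on both sides of it.

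Related genes outside the set were listed by role and counted in the same fit. In that fit 29.5% of all genes tested rose and 28.3% fell with EZH2i, and 29.8% rose and 29% fell with CBPi. With FSK 25.5% of them rose and 25.1% fell. A count near these shares does not set a list apart. Of 38 other lysosomal hydrolases, 10 rose and 18 fell with EZH2i (median -0.154), 18 rose and 13 fell with CBPi (0.107), and 15 rose and 8 fell with FSK (0.04); with library size only, 13 rose and 11 fell with FSK (-0.029). IDUA, which degrades dermatan and heparan sulfate, averaged 84.0 ± 7.53 CPM with EZH2i, 109.7 ± 8.70 CPM with CBPi and 80.2 ± 13.3 CPM with FSK, against 46.7 ± 3.18 CPM at baseline, and rose with each (0.85, 1.23 and 0.78; adjusted p at most 6.07e-05). The protease CTSS fell with FSK, to 8.24 ± 0.7 CPM against 21.2 ± 0.47 CPM at baseline (log2 change -1.37 ± 0.08 SE, adjusted p = 5.64e-12), and HGSNAT, an acetyltransferase of heparan sulfate breakdown, rose (log2 change 0.83 ± 0.05 SE, adjusted p = 1.47e-11). The protease CTSH fell with both inhibitors (-0.68 with EZH2i and -1.05 with CBPi, adjusted p = 8.35e-05 and 1.09e-06). FUCA1, a fucosidase, fell with EZH2i (log2 change -0.58 ± 0.06 SE, adjusted p = 5.96e-08), and the protease CTSK rose with CBPi, to 2.84 ± 0.59 CPM against 1.47 ± 0.64 CPM at baseline (log2 change 0.96 ± 0.23 SE, adjusted p = 0.00107).

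Of 25 other membrane proteins, 11 rose and 5 fell with EZH2i (median 0.133), 13 rose and 4 fell with CBPi (0.221), and 13 rose and 6 fell with FSK (0.175). Scaling by library size only gave 8 and 6 with FSK (0.106). Across all genes tested, 29.5% rose and 28.3% fell with EZH2i, 29.8% and 29% with CBPi, and 25.5% and 25.1% with FSK. CD63, a tetraspanin of late endosomes and lysosomes, averaged 655 ± 15.1 CPM with EZH2i and 2010 ± 102 CPM with FSK, against 1061 ± 50.6 CPM at baseline. It was thus lower with EZH2i (log2 change -0.70 ± 0.05 SE, adjusted p = 8.50e-11) and higher with FSK (log2 change 0.92 ± 0.05 SE, adjusted p = 7.88e-13). NPC1, which moves cholesterol out of lysosomes, averaged 103 ± 3.18 CPM with CBPi, against 63.0 ± 3.01 CPM at baseline (log2 change 0.71 ± 0.05 SE, adjusted p = 1.27e-10), and the sialic acid carrier SLC17A5 rose with CBPi as well (log2 change 0.88 ± 0.07 SE, adjusted p = 6.31e-10). LAMP3, an inducible relative of LAMP1, was low throughout but rose with EZH2i (0.88), CBPi (1.94) and FSK (1.31), with 3.34 ± 0.49, 6.99 ± 0.17 and 4.51 ± 0.34 CPM against 1.85 ± 0.54 CPM at baseline (adjusted p at most 0.000237). ABCA2, a lipid transporter, rose with EZH2i (log2 change 0.66 ± 0.06 SE, adjusted p = 9.13e-09), and LAPTM5, known from blood cells, rose with FSK, to 2.97 ± 0.28 CPM against 0.708 ± 0.085 CPM at baseline (log2 change 2.05 ± 0.21 SE, adjusted p = 6.34e-08).

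Delivery of hydrolases and the autophagy lists showed single genes that stood out. For comparison, 29.5% of all genes tested rose and 28.3% fell with EZH2i, 29.8% and 29% with CBPi, and 25.5% and 25.1% with FSK. Of 20 delivery genes, 6 rose and 8 fell with EZH2i, 5 rose and 8 fell with CBPi, and 8 rose and 6 fell with FSK. The counts with FSK were 7 and 9 with library size only. IGF2R, the large mannose 6-phosphate receptor that carries hydrolases, averaged 402 ± 28.5 CPM with EZH2i, 548 ± 19.0 CPM with CBPi and 343 ± 18.7 CPM with FSK, against 249 ± 12.3 CPM at baseline, a rise with each (0.69, 1.14 and 0.46; adjusted p at most 3.44e-07). The adaptor subunit AP1S1 (-0.88, adjusted p = 1.72e-11) and the retromer subunit VPS29 (-0.62, adjusted p = 5.11e-09) fell with CBPi. With EZH2i the sorting receptor SORL1 rose (1.02, adjusted p = 0.000169) and NAGPA, which uncovers the mannose 6-phosphate signal, fell (-0.76, adjusted p = 1.11e-07). With FSK GNPTAB, a subunit of the enzyme that adds this signal, fell (-0.37, adjusted p = 1.77e-05) and CLN8 rose (0.34, adjusted p = 0.00188). Of 36 other autophagy genes tested, 13 rose and 11 fell with EZH2i, 17 rose and 8 fell with CBPi, and 15 rose and 6 fell with FSK, where library size only gave 11 and 10. GABARAP, a close relative of GABARAPL1, fell with EZH2i (log2 change -0.56 ± 0.05 SE, adjusted p = 2.27e-09), and RUBCN, an inhibitor of autophagosome maturation, rose with CBPi (log2 change 0.97 ± 0.06 SE, adjusted p = 1.85e-11). VAMP8, a SNARE of autophagosome fusion, fell with EZH2i (-1.56, adjusted p = 4.12e-07), CBPi (-1.37, adjusted p = 3.16e-06) and FSK (-0.66, adjusted p = 0.00307), and was already low at baseline (3.10 ± 0.55 CPM). ATG16L2 rose with EZH2i (0.52, adjusted p = 0.00398) and FSK (1.27, adjusted p = 2.79e-07), WDR45, a relative of WIPI1, with CBPi (0.74, adjusted p = 6.23e-09), and AMBRA1, a regulator of BECN1 and ULK1, with FSK (0.59, adjusted p = 7.50e-09). Of 16 autophagy receptors, 4 rose and 8 fell with EZH2i, 4 rose and 7 fell with CBPi, and 1 rose and 8 fell with FSK, where library size only gave 1 and 11. CCPG1, a receptor for the endoplasmic reticulum, averaged 42.2 ± 0.97 CPM with EZH2i and 91.3 ± 2.58 CPM with CBPi, against 27.3 ± 1.14 CPM at baseline (0.63 and 1.74; adjusted p at most 9.29e-09). BNIP3L, a receptor for mitochondria, averaged 12.9 ± 0.28 CPM with FSK, against 29.1 ± 0.69 CPM at baseline (log2 change -1.17 ± 0.07 SE, adjusted p = 1.09e-11). OPTN, a receptor for ubiquitin-marked cargo, fell with EZH2i (-0.63, adjusted p = 4.58e-09) and FSK (-0.66, adjusted p = 3.16e-09). TEX264, another receptor for the endoplasmic reticulum, fell with CBPi (-0.40, adjusted p = 8.64e-07) and FSK (-0.48, adjusted p = 1.04e-07), and NBR1 rose with CBPi (0.51, adjusted p = 6.06e-09). RETREG1, of the same receptor class, rose with EZH2i (1.26, adjusted p = 0.000256) at only 1.71 ± 0.37 CPM, against 0.69 ± 0.23 CPM at baseline.

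Of 33 genes of nutrient sensing at the lysosome, 13 rose and 10 fell with EZH2i (median 0.016), 15 rose and 9 fell with CBPi (0.097), and 10 rose and 12 fell with FSK (-0.018). The counts with FSK were 8 and 16 with library size only (-0.087). Over all genes tested, 29.5% rose and 28.3% fell with EZH2i, 29.8% and 29% with CBPi, and 25.5% and 25.1% with FSK. SESN2, a stress-induced inhibitor of mTORC1, averaged 69.1 ± 1.55 CPM with EZH2i, 146 ± 14.3 CPM with CBPi and 71.2 ± 3.05 CPM with FSK, against 31.8 ± 0.99 CPM at baseline. These were rises of 1.12 ± 0.06, 2.19 ± 0.06 and 1.16 ± 0.06 on the log2 scale (adjusted p at most 9.61e-12). DDIT4, another mTORC1 inhibitor, rose with EZH2i (1.02, adjusted p = 8.05e-10) and CBPi (2.14, adjusted p = 4.83e-15). SESN3, of the same family as SESN2, rose with EZH2i, to 51.4 ± 1.34 CPM, and fell with FSK, to 8.98 ± 0.88 CPM, against 25.8 ± 1.32 CPM at baseline (1.00 and -1.52; adjusted p at most 2.28e-11). FLCN, through which the Rag GTPases hold TFEB and TFE3 in the cytoplasm, rose with CBPi, to 50.9 ± 1.36 CPM against 27.7 ± 0.29 CPM at baseline (log2 change 0.88 ± 0.06 SE, adjusted p = 3.93e-11). CASTOR1, an arginine sensor, fell with FSK to 0.494 ± 0.0021 CPM, against 1.01 ± 0.28 CPM at baseline (log2 change -1.05 ± 0.28 SE, adjusted p = 0.00324).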

How the data were processed

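The authors aligned reads with STAR and counted them with featureCounts on hg38, per the submitters' processing notes. Versions, the strand setting and the handling of reads with several matches were not given in the sources used here. For 60617 genes the authors deposited values that are estimated counts, not normalized, of which 65.6% of the non-zero ones are whole within 1e-06 and the others are fractions. The deposited gene lengths, another column of the table in bases, gave CPM per kb. Positions and exon overlaps came from GENCODE 29 and promoter windows from RefSeq.

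Counts were rounded and analysed with edgeR 4.0.16 (R 4.3.3). After filterByExpr left 20360 genes, libraries were scaled by TMM and all 12 were fitted in 1 robust quasi-likelihood model without covariates. The 6 pairs of groups were tested in it, with Benjamini-Hochberg adjustment over all genes tested and a threshold of 0.05. The common dispersion was 0.00248. The SE is the log2 fold change divided by the square root of F. CPM are TMM-scaled counts per megacount, with the SD over 3 libraries. Lists were described by counts and medians only. Library totals of 20.6 to 31.5 megacounts set the precision, and the fewest counts per member fell to TFEB, at 3.94 to 7.95 CPM.

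Values in every library are given for TFEB, TFE3, MITF and the up to 4 largest rises and 4 largest falls per comparison with baseline among members that passed without overlap. Of each related list, the up to 3 largest changes that passed in each comparison with baseline were named. The members, the lists and these rules were chosen with earlier results of these data known. Alternatives were DESeq2 1.42.0, limma 3.58.1 (voom), RLE, upper quartile and library size scaling, 2 other filters, fits of only 2 groups, fold thresholds of 1.25 and 2, and leaving out each library. Tested on simulated data made like EZH2i against baseline (19434 genes, 50 changed at each fold), with folds of 1.25, 1.5, 2 and 4 the plain test recovered 32, 41, 49 and 50 of them and the 1.5-fold test 0, 1, 43 and 50.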

Additional observations from a re-analysis of the deposited data

How the results depend on the processing

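Across 20 alternative settings, 2786 of 2940 values of single members kept their direction and side of the threshold, 130 lost their call, 24 gained one and 0 changed sign while called. Counts of members by the plain test moved by over 1.5 times with library size only, which gave 7 higher with FSK than at baseline and 7 lower with CBPi than with FSK, and with no filter on low counts, which gave 4 higher with EZH2i than with CBPi. A fold threshold 25% above no change, in place of 1.5-fold, gave 1 higher and 2 lower with EZH2i than at baseline, 6 higher with CBPi, and 3 higher and 2 lower with FSK. It gave 1 higher and 2 lower with EZH2i than with CBPi, 5 higher and 3 lower with EZH2i than with FSK, and 3 lower with CBPi than with FSK. The share of all genes at this 25% threshold is not given here, so these counts cannot be set against it. A fold threshold of 2 gave 0 lower with EZH2i, 0 higher and 0 lower with CBPi and 0 lower with FSK, all against baseline, 0 higher and 0 lower with EZH2i than with FSK, and 0 higher with CBPi than with FSK; fewer genes can pass a larger fold.

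Leaving out 1 library at a time gave ranges. By the plain test against baseline, members higher with EZH2i were 10 to 13 and lower 7 to 10. Members higher with CBPi were 16 to 19 and lower 5 to 8. Members higher with FSK were 8 to 12 and lower 7 to 9. Members higher with EZH2i than with CBPi were 4 to 6. By the 1.5-fold test, members higher with CBPi than at baseline were 1 to 2, members higher with FSK than at baseline 0 to 1 and lower 0 to 1, and members higher with EZH2i than with FSK 1 to 2 and lower 1 to 2. No paired analysis was possible because the labels give no replicate numbers. The replicate numbers used here follow the order of the deposited columns within each group and do not match cultures across groups.

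In the simulation of 19434 genes, changes of 25% were recovered for 32 of 50 genes. Recovery at the levels of the members was not given separately, so this share does not measure power for the members. A member with no call is still not shown to be unchanged. Only 3 libraries a group limit precision. Members that share over 10% of their exon bases with other genes have uncertain counts. For CTSA, WIPI1, SQSTM1, ATG7, BECN1 and HEXA the main partner lies on the other strand, where the strand setting, not given in the sources used here, matters. For CTSD, ATG9A, NAGLU and TPP1 it lies on the same strand, which no strand setting separates.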

Other observations

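TGATGNAA, a site for ATF4, was in 0 member windows, and the other genes with it in a window are given here. Of 354 such genes tested, 43.5% rose and 22.3% fell with EZH2i, 44.6% rose and 27.7% fell with CBPi, and 30.5% rose and 31.1% fell with FSK. Of all 12659 genes tested with a window, 33% rose and 30.6% fell with EZH2i, 32.9% rose and 32% fell with CBPi, and 28% rose and 28.9% fell with FSK. This was noticed in the data and is a description of shares, with no test.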
